A study of Homo sapiens with 6 samples.

Results

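The genes described here encode the proteins of the mitochondrial ribosome, taken as every gene name in the count files that is MRPL or MRPS followed by a number and at most 1 letter. The pattern found 78 of 57316 gene names, 49 for the large subunit (MRPL) and 29 for the small subunit (MRPS). The cells were THP-1, a line from a human monocytic leukaemia, and all of them first spent 48 h with PMA at 100 ng/ml, a phorbol ester that gives this line macrophage features. For the following 24 h, 3 libraries came from cells kept with recombinant human CXCL10 at 100 ng/ml and 3 from cells kept with a control solution, each group carrying the replicate numbers 1, 3 and 4. CXCL10 is a chemokine that interferon induces and that acts through the receptor CXCR3, and the comparison asked which transcripts differ after a day with it. All cells came from a single line, and the labels do not say whether replicates were separate cultures. The p-values therefore reflect the spread among these libraries alone, which may be technical.

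Mitochondria carry their own ribosomes, which translate only the mRNAs of the mitochondrial genome, all of them for subunits of the oxidative phosphorylation complexes. The rRNAs are mitochondrially encoded, whereas every protein of this ribosome is encoded in the nucleus, made in the cytosol and imported. The small subunit binds the mRNA and reads its codons, and the large subunit forms the peptide bond beside a tunnel that ends at the inner membrane. Some of these proteins have relatives in bacterial ribosomes and the others are found only in mitochondria.

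Library totals were 34.8 to 41.02 M reads with CXCL10 and 36.02 to 38.9 M reads in controls. Control replicate 4 stood apart from the other 5 libraries on the first principal component, which held 44.2% of the variance. It also had the lowest read-weighted mean exon length, 4817 bases, against 4997 to 5349 bases in the others, with the highest value in CXCL10 replicate 3. The monocyte and macrophage genes CD14, CSF1R, SPI1 and TYROBP had 8126 reads or more in each library, while the T cell gene CD2, the B cell gene MS4A1 and the epithelial genes EPCAM and KRT5 had 0 reads in all 6. CD68, a macrophage marker, had only 0 to 5 reads per library, and the T cell receptor gene TRAC had 7229 to 10346 while CD3E had 0 to 4.

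As a group, the transcripts of mitochondrial ribosomal proteins had a slightly lower median with CXCL10 than in controls, and no single gene passed the test. Of 77 genes with enough reads to test, 65 had a log2 fold change below 0 (CXCL10 over control), or 84.4%, where 46.0% of all 16531 genes tested were below 0. The median log2 fold change was -0.24 over 48 large subunit genes and -0.19 over 29 small subunit genes, beside 0.023 over all genes. Without control replicate 4 the median of all 17116 genes was 0.017, with 47.0% below 0. The subunit medians were then -0.16 and -0.16, with 66 of the 77 members still below 0. In bulk RNA, fewer cells with these transcripts and less of them per cell cannot be told apart.

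The summed level of each subunit was compared library by library. Sums are in CPM, here reads per 1 M of a library total scaled by a TMM factor, computed from the counts. That factor was lowest in control replicate 4, 0.929, and highest in CXCL10 replicate 3, 1.05. A lower factor gives a higher CPM. The 49 large subunit genes together had 2973, 2412 and 2561 CPM in CXCL10 replicates 1, 3 and 4. Control replicates 1, 3 and 4 had 3012, 2927 and 3576 CPM. The 29 small subunit genes together had 1297, 1171 and 1221 CPM with CXCL10 and 1360.3, 1366 and 1598 CPM in controls. Control replicate 4 was the highest library in both subunits and CXCL10 replicate 3 the lowest, while CXCL10 replicate 1 lay close to control replicates 1 and 3. For the large subunit the groups overlapped, since CXCL10 replicate 1 was above control replicate 3; for the small subunit all 3 CXCL10 libraries were below all 3 controls. The mean sum with CXCL10 was 83.5% of the control mean for the large subunit and 85.3% for the small one, and 89.2% and 90.2% of the mean of control replicates 1 and 3. As a share of all reads, without that scaling, the 78 genes took 0.398% ± 0.0277 with CXCL10 and 0.447% ± 0.0288 in controls (SD, n = 3 each). The large subunit genes took 0.272% ± 0.0240 with CXCL10 and 0.308% ± 0.0216 in controls. For the small subunit genes these shares were 0.126% ± 0.00375 and 0.140% ± 0.00740.

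Each gene was also assigned its highest and lowest library. Control replicate 4 held the highest CPM for 33 of 48 large and 19 of 29 small subunit genes, and CXCL10 replicate 3 the lowest for 34 and 13. Over all genes tested, control replicate 4 was the highest library for 25.8% and CXCL10 replicate 3 the lowest for 19.5%. CXCL10 replicates 3 and 4 were both below every control for 57 of the 77 genes, against 2808 of all 16531 genes. CXCL10 replicate 1 was within the control range or above it for 50 of the 77, against 70.9% of all genes. Genes of cytosolic ribosomal proteins moved with the same libraries: their share of reads was highest in control replicate 4 at 12.8% and lowest in CXCL10 replicate 3 at 7.64%. Their median log2 fold change was -0.44 over 80 genes, -0.25 without control replicate 4. Fits without control replicate 4 give how the values change when it is left out. The cause of its difference, RNA quality included, was not tested.

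**Figure D1:**
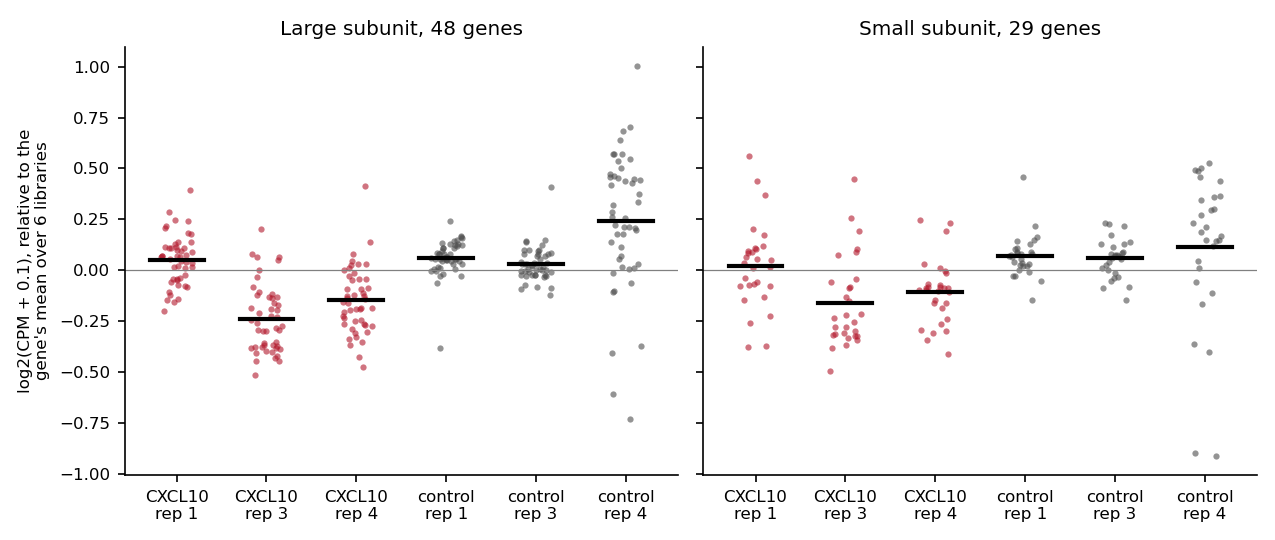
Level of each tested mitochondrial ribosomal protein gene in each library, as log2(CPM + 0.1) relative to the mean of the gene over the 6 libraries, with CXCL10 libraries left of the controls and a bar at the mean of the genes. The mean was highest in control replicate 4 (0.24 for the large and 0.12 for the small subunit) and lowest in CXCL10 replicate 3 (-0.24 and -0.16).

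None of the 77 genes passed the threshold of 0.05. Of the 16531 genes in the fit, 0 were called higher (0%) and 0 lower (0%) by the quasi-likelihood test of edgeR after Benjamini-Hochberg adjustment, and the lowest adjusted p of any member was 0.683. At an unadjusted p under 0.05, 15 large and 5 small subunit genes were on the lower side, together 25.97% of the members against 4.65% of all genes, and 0 were on the higher side, against 2.50% of all genes. DESeq2 and limma-voom also called 0 members, with 19 and 19 at an unadjusted p under 0.05, all lower, against 4.80% and 4.28% of all genes. The edgeR count of 20 became 1 when control replicate 4 was left out, where 1.59% of all genes were on the lower side at that p, so the members' count was then at the background. It became 38 without CXCL10 replicate 1 (against 7.01% of all genes), 3 without CXCL10 replicate 3 (1.95%) and 5 without CXCL10 replicate 4 (1.98%). It was 6 scaled by library size alone (against 2.46% of all genes) and 11 after each library's trend with gene length was taken out (3.75%). All 3 CXCL10 libraries lay below all 3 controls for 20 members, or 25.97%, against 6.48% of all genes, and above them for 0 members, against 5.76%.

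**Figure D2:**
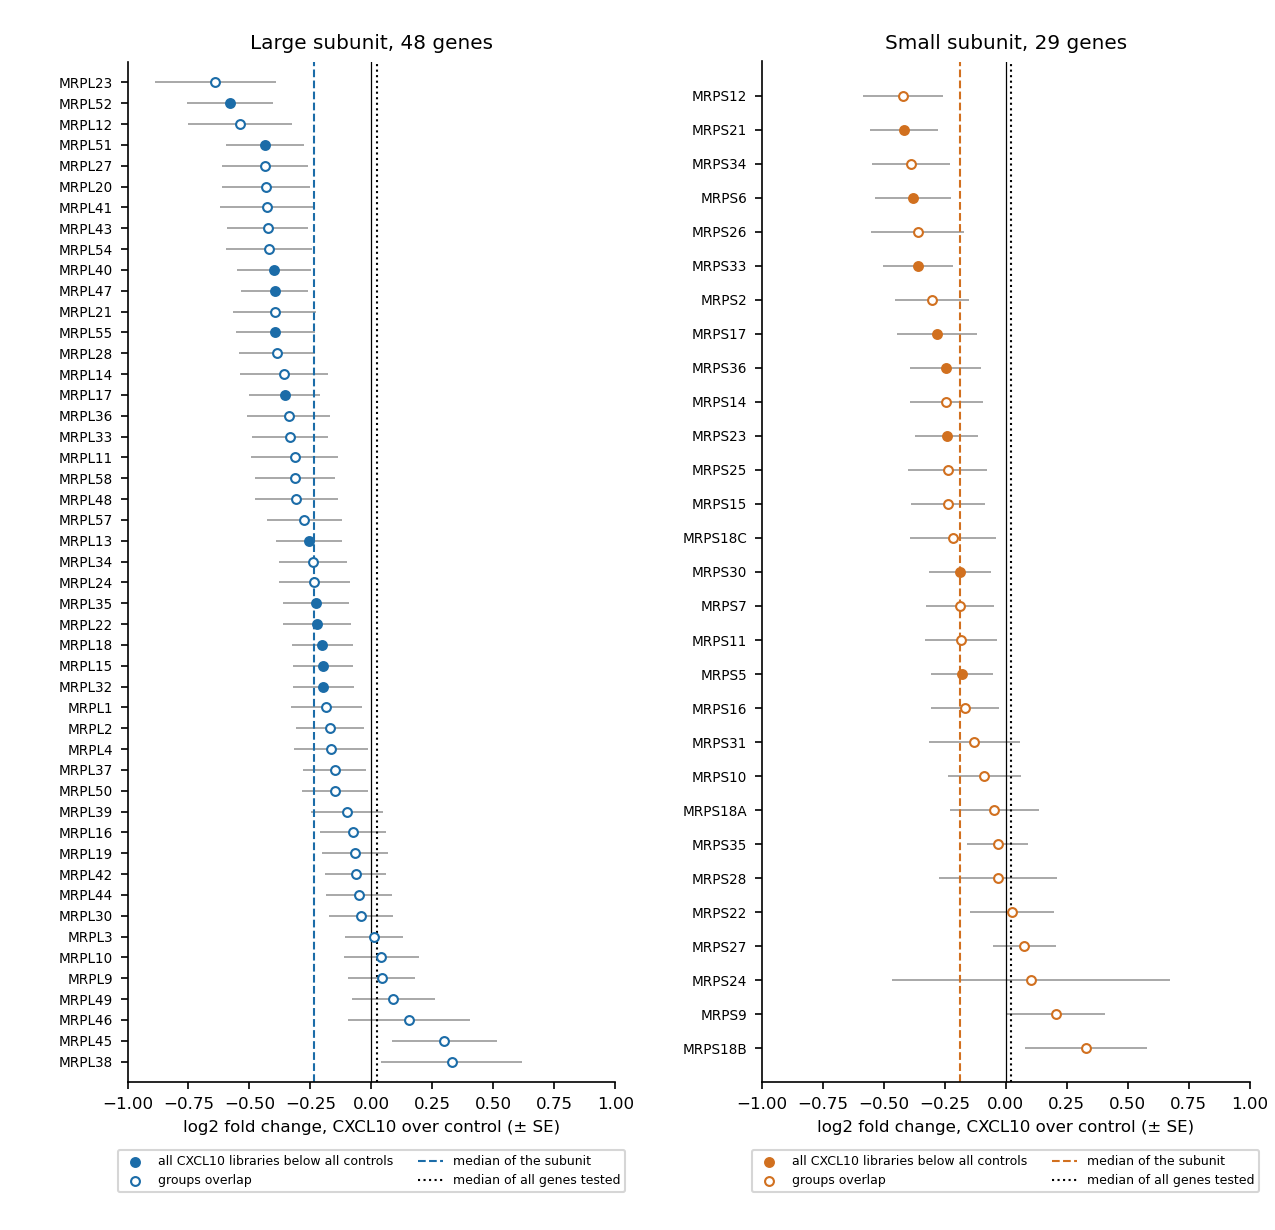
Log2 fold change, CXCL10 over control, with its standard error, for the 48 large and 29 small subunit genes tested. Filled points mark the 20 genes whose 3 CXCL10 libraries lay below the 3 controls, the dashed line is the subunit median (-0.24 and -0.19) and the dotted line the median of all genes tested (0.023).

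Among large subunit proteins, the 4 genes on the lower side with the smallest p-values were MRPL52, MRPL47, MRPL51 and MRPL40. MRPL47 is the relative of bacterial ribosomal protein uL29, and the other 3 are mitochondria-specific. MRPL52 (chromosome 14, 22829879 to 22835037, hg38) measured 86.9, 65.98 and 69.03 CPM in CXCL10 replicates 1, 3 and 4, against 99.8, 88.7 and 143 CPM in control replicates 1, 3 and 4. The groups did not overlap, but CXCL10 replicate 1 came close to control replicate 3, and control replicate 4 stood far above the others. Its means were 73.96 ± 11.3 CPM with CXCL10 and 111 ± 28.7 CPM in controls (SD, n = 3 each), which gave a log2 fold change of -0.58 ± 0.18 (± SE; edgeR adjusted p = 0.683), or -0.35 without control replicate 4. With no filter on low counts, MRPL52 was called lower (adjusted p = 0.0349 by edgeR). That fit called 92 of all 30869 genes lower and 45 higher.

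MRPL47 (chromosome 3, 179588285 to 179604654) measured 72.8, 65.3 and 73.1 CPM with CXCL10 and 86.7, 83.6 and 108 CPM in controls, with a log2 fold change of -0.40 ± 0.14, -0.27 without control replicate 4. MRPL51 (chromosome 12, 6491886 to 6493841) measured 46.1, 43.2 and 48.6 CPM with CXCL10 and 54.96, 53.1 and 78.8 CPM in controls, with a log2 fold change of -0.44 ± 0.16, -0.23 without that library. In both genes the CXCL10 libraries lay close together and below every control. MRPL40 (chromosome 22, 19431902 to 19436075) measured 33.9, 26.7 and 29.9 CPM with CXCL10 and 40.8, 33.97 and 44.7 CPM in controls, with a log2 fold change of -0.40 ± 0.15. Here the highest CXCL10 library, replicate 1, was almost level with the lowest control, replicate 3. MRPL23, which encodes the relative of bacterial uL23 at the tunnel exit, had the lowest fold change of all members, -0.64 ± 0.25, and is named because of that value. Its groups overlapped, with 84.5, 60.5 and 61.4 CPM with CXCL10 and 78.9, 77.3 and 165 CPM in controls, and without control replicate 4 its log2 fold change was -0.18. With no filter on low counts it was the other member called lower (adjusted p = 0.0167 by edgeR).

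Among small subunit proteins, the corresponding 4 genes were MRPS21, MRPS12, MRPS33 and MRPS34. MRPS21, the relative of bacterial bS21 and the small subunit gene with the highest level per length (chromosome 1, 150293720 to 150308979), measured 162, 162 and 169 CPM with CXCL10 and 196, 197 and 264 CPM in controls. Its CXCL10 libraries lay close together and well below the lowest control, and its log2 fold change was -0.42 ± 0.14 (adjusted p = 0.683 by edgeR), -0.26 without control replicate 4. MRPS12, the relative of bacterial uS12 in the decoding region (chromosome 19, 38930548 to 38933162), measured 37.2, 27.5 and 29.05 CPM with CXCL10 and 39.6, 36.4 and 49.2 CPM in controls, a log2 fold change of -0.42 ± 0.16, with CXCL10 replicate 1 above control replicate 3. MRPS33, a mitochondria-specific protein (chromosome 7, 141002610 to 141015228), measured 28.9, 26.3 and 29.8 CPM with CXCL10 and 32.6, 35.1 and 41.1 CPM in controls without overlap, a log2 fold change of -0.36 ± 0.14. MRPS34, also mitochondria-specific (chromosome 16, 1771890 to 1773155), measured 98.97, 78.7 and 75.2 CPM with CXCL10 and 102, 94.7 and 134 CPM in controls, a log2 fold change of -0.39 ± 0.16. CXCL10 replicate 1 again lay within the control range for MRPS34. Without control replicate 4 the log2 fold changes of MRPS12, MRPS33 and MRPS34 were -0.28, -0.26 and -0.22.

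Only 12 members had a log2 fold change above 0, and for 8 of them the standard error was larger than the value. The 2 with the smallest p-values were MRPL45, which helps to hold the ribosome at the inner membrane, and MRPS18B. MRPL45 (chromosome 17, 38297023 to 38323217) measured 15.96, 16.6 and 20.97 CPM with CXCL10 and 16.7, 17.4 and 9.45 CPM in controls, and MRPS18B (chromosome 6, 30617840 to 30626395) measured 14.3, 9.97 and 12.4 CPM with CXCL10 and 11.2, 12.4 and 5.62 CPM in controls. In both genes control replicate 4 was the lowest library and the other 5 overlapped. Their log2 fold changes were 0.30 ± 0.21 (adjusted p = 0.774 by edgeR) and 0.33 ± 0.25 (adjusted p = 0.790), and without control replicate 4 they were 0.072 and 0.059. MRPL38, MRPL46 and MRPL49 had 0.33, 0.15 and 0.090, and MRPS9, MRPS27 and MRPS24 had 0.21, 0.076 and 0.10, all with overlapping groups. When control replicate 4 was left out, these 6 values were 0.14, 0.0070, -0.049, 0.089, 0.044 and -0.26. Of these genes, MRPS24 rested on 5 to 22 reads per library.

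**Figure D3:**
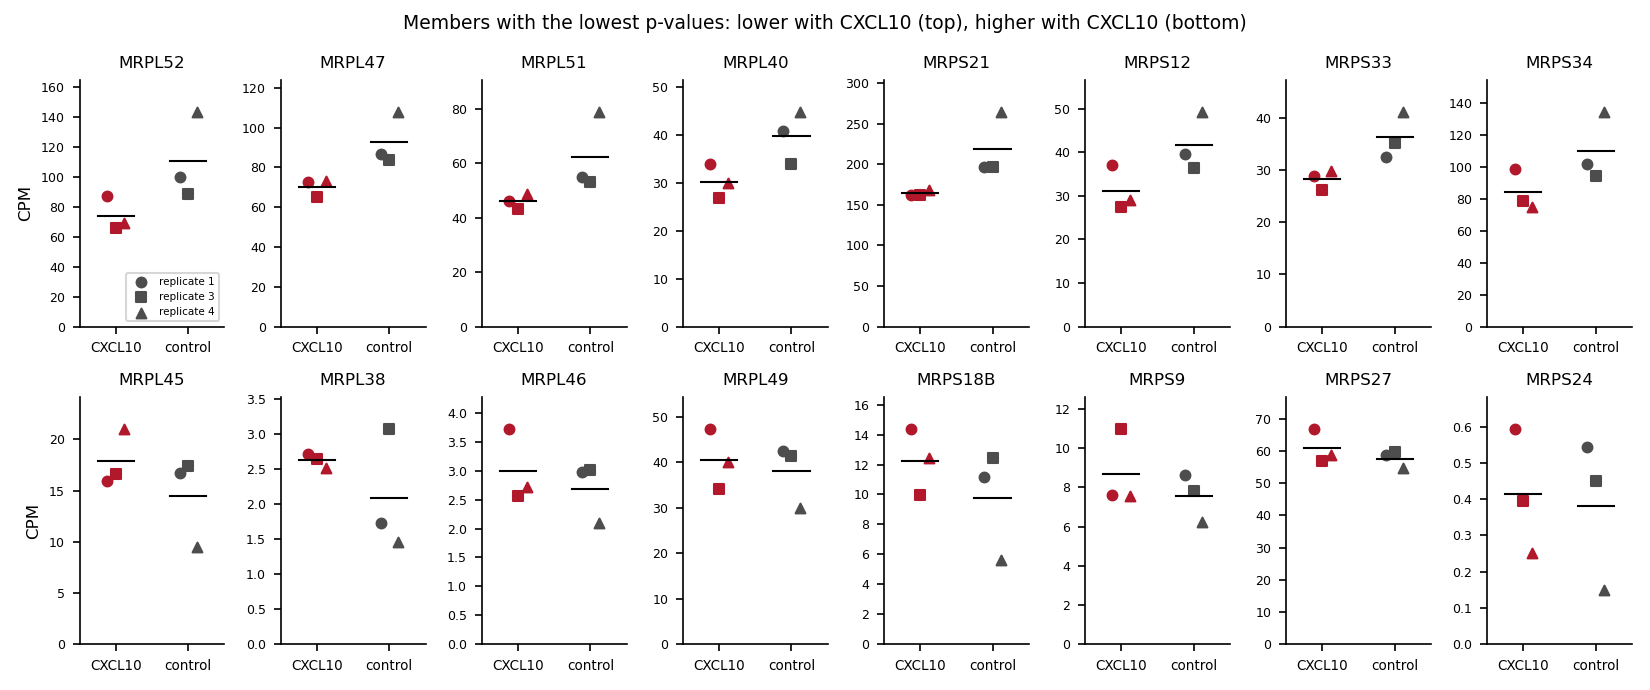
CPM in each library for the 4 genes per subunit with the smallest p-values on the lower side (top row) and on the higher side (bottom row), CXCL10 left of control, with a line at the group mean. Control replicate 4 (triangle) was the highest library for all 8 genes of the top row and the lowest for all 8 genes of the bottom row.

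The promoters of the 8 genes on the lower side are shown because they share a short motif. In RefSeq's promoter sequences (GRCh38.p14, 250 bases before to 50 after each gene's start), found for 69 of the 78 genes, the letters CCGGAAG, the core that ETS-family factors such as GABPA bind, were present on either strand in 29 members, or 42.03%. They were present in 10.7% of all 27305 promoters and in 18.5% of the promoters of the 11029 tested genes with an entry. All 8 of the lower genes held it, and 1 of the 8 genes on the higher side, MRPL38. Both sets of 8 were chosen by p-value in these data, and the motif was searched afterwards. Among the other members on the lower side at an unadjusted p under 0.05 by edgeR, the motif was not always present. MRPL20, MRPL27, MRPL28, MRPL43 and MRPL54 held it, MRPL12, MRPL17, MRPL41, MRPL55 and MRPS6 did not, and MRPL21 and MRPL23 had no promoter entry. The starts used are those of RefSeq, whereas the gene spans given above are from the count files. The windows below for MRPL51, MRPL40, MRPS21, MRPS12 and MRPS33 lie inside those spans, and the MRPL51 window overlaps an exon of NCAPD2. The copy nearest the RefSeq start of each gene is printed on the strand of the gene, with the motif or its reverse complement CTTCCGG in capitals.
MRPL52, chr14:22829872-22829898, + strand: gccacgcctaCTTCCGGctaccccggc
MRPL47, chr3:179604661-179604687, - strand: gcttgagacgCCGGAAGtgacgctatc
MRPL51, chr12:6493350-6493376, - strand: ggcaggcggaCCGGAAGcactgaggcg
MRPL40, chr22:19432524-19432550, + strand: gggcgcacgcCCGGAAGcggcgagggt
MRPS21, chr1:150293840-150293866, + strand: gtaatttccgCTTCCGGtagtgagaac
MRPS12, chr19:38930929-38930955, + strand: cggatagcgcCCGGAAGaggctagaag
MRPS33, chr7:141014936-141014962, - strand: gagggcgggcCTTCCGGgacgagggcg
MRPS34, chr16:1773137-1773163, - strand: cttccggtgaCTTCCGGccggaccgct

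The letters ATGGCGG, a core of the motif of the factor YY1, were present in 24 of the 69 promoters, or 34.8%, against 5.72% of all promoters and 9.71% of those of tested genes. They were in 3 of the 8 lower genes, MRPL52, MRPL47 and MRPS34, and in 5 of the 8 higher ones, which are shown for comparison on the strand of the gene with the motif in capitals. In each of these 5 the motif lay just after the RefSeq start of the gene, in a window that overlaps an exon of that gene. Its first letters, ATG, are also those of a start codon. Whether the matches are the start of the coding sequence rather than sites for YY1 was not tested. Longer forms of the YY1 and NRF1 motifs were searched before the ones given here and matched fewer promoters.
MRPL38, chr17:75904859-75904885, - strand: cggagggaagATGGCGGcgccctggtg
MRPL46, chr15:88467361-88467387, - strand: agaacgaaagATGGCGGcgcccgtaag
MRPS18B, chr6:30617856-30617882, + strand: gtacgtcaagATGGCGGcgtctgtatt
MRPS9, chr2:105038083-105038109, + strand: cacagctaacATGGCGGcgccctgtgt
MRPS24, chr7:43869479-43869505, - strand: ttggcccaagATGGCGGcctccgtgtg

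Over all members with a promoter entry and a test, the 28 with the ETS motif had a median of -0.35 on the log2 fold change scale and the 40 without it -0.19. Without control replicate 4 these were -0.22 and -0.15, and with the gene length trend removed -0.24 and -0.18. The 24 with the YY1 motif had -0.15 and the 44 without it -0.28, which were -0.12 and -0.17 without control replicate 4 and -0.14 and -0.21 with the length trend removed. The letters GCATGCG, a core of the motif of the factor NRF1, were in 7 member promoters, or 10.1%, against 4.13% of all promoters and 6.28% of those of tested genes. The members with it had a median of -0.22 and the 61 without it -0.23. These matches describe letters in the windows, and the motifs were searched after the fold changes had been seen. The genes of the factors themselves had log2 fold changes of 0.30 ± 0.18 for GABPA, 0.14 ± 0.15 for NRF1 and -0.016 ± 0.12 for YY1. The GABPA value rested on CXCL10 replicate 3, with 34.9 CPM, while the other libraries of both groups had 20.1 to 22.8 CPM.

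Several proteins with known special roles lay on either side. MRPL12, the relative of the bacterial stalk protein L7/L12, which also binds the mitochondrial RNA polymerase, measured 16.3, 12.01 and 11.2 CPM with CXCL10 and 17.3, 14.6 and 25.4 CPM in controls, a log2 fold change of -0.54 ± 0.21 and -0.28 without control replicate 4. MRPL58, which can release peptides from stalled ribosomes, measured 54.6, 39.4 and 44.8 CPM with CXCL10 and 53.2, 50.2 and 69.2 CPM in controls, a log2 fold change of -0.32 ± 0.16 and -0.16 without that library. For both genes the libraries of the groups overlapped through CXCL10 replicate 1. MRPL3, the relative of uL3 near the peptidyl transferase centre, was among the steadiest members, with 125, 138 and 134 CPM with CXCL10, 132, 129 and 132 CPM in controls and a log2 fold change of 0.011 ± 0.12. MRPS16 and MRPS22, in both of which inherited defects of mitochondrial translation are known, had -0.17 ± 0.14 and 0.026 ± 0.17.

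Some gene names do not match the place of the protein in the human structure. MRPS30 and MRPS18A sit in the large subunit, and MRPS36 is now known as a part of the oxoglutarate dehydrogenase complex. MRPS30 measured 49.6, 47.1 and 48.7 CPM with CXCL10 and 52.5, 55.9 and 57.1 CPM in controls without overlap, a log2 fold change of -0.19 ± 0.13. MRPS36 measured 26.5, 22.6 and 28.2 CPM with CXCL10 and 29.2, 29.5 and 32.9 CPM in controls, also without overlap, a log2 fold change of -0.25 ± 0.14. The MRPS18 genes are 3 relatives of 1 bacterial protein that occupy different places: MRPS18C, in the position of bacterial bS18, had -0.21 ± 0.18, MRPS18A had -0.046 ± 0.18 and MRPS18B, as given above, had the opposite sign. Grouped by structure, with GADD45GIP1, DAP3, PTCD3, AURKAIP1 and CHCHD1 added, the medians were -0.23 over 51 large and -0.20 over 30 small subunit genes. Of these 5 added genes, GADD45GIP1 of the large subunit had the lowest value, -0.71 ± 0.23 (33.7 ± 7.68 CPM with CXCL10 and 55.2 ± 20.3 CPM in controls, n = 3 each), followed by CHCHD1 of the small subunit with -0.44 ± 0.18. These were -0.36 and -0.22 without control replicate 4. Proteins with bacterial relatives had medians of -0.24 in the large (30 genes) and -0.20 in the small subunit (16 genes), and mitochondria-specific ones -0.17 (20 genes) and -0.18 (10 genes). Without control replicate 4 the bacterial relatives had -0.17 and -0.18, and the mitochondria-specific proteins -0.14 and -0.050.

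Although the proteins enter the ribosome in equal numbers, with the stalk protein MRPL12 as an exception, their transcript levels differed widely. On the scale of reads per kilobase of exon and per 1 M reads (RPKM), the highest large subunit genes were MRPL37, with 94.4 ± 12.9 RPKM with CXCL10 and 105 ± 2.12 RPKM in controls, MRPL14, with 84.5 ± 21.1 RPKM with CXCL10 and 108 ± 19.8 RPKM in controls, and MRPL18, with 88.6 ± 3.02 RPKM with CXCL10 and 102 ± 10.3 RPKM in controls. The highest small subunit genes were MRPS21, with 100.1 ± 2.48 RPKM with CXCL10 and 133 ± 23.8 RPKM in controls, MRPS34, with 76.9 ± 11.7 RPKM with CXCL10 and 101 ± 19.3 RPKM in controls, and MRPS10, with 37.95 ± 4.89 RPKM with CXCL10 and 40.3 ± 6.06 RPKM in controls. Over all 6 libraries the median RPKM level was 21.4 for the large and 11.5 for the small subunit genes tested. MRPL37, MRPL14 and MRPL18 overlapped in level across libraries and did not differ beyond that spread. RPKM used the same scaled totals as CPM. Exon lengths are unions over all annotated transcripts, so genes with long alternative exons can have levels that are too low.

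Some members share coding sequence with another annotated gene, and reads over both genes were left out of the counts. The part of this in the levels was not tested. More than 50% of the coding bases (GENCODE 29) lay in exons of other genes for 8 members, and 5 of the 6 members with the lowest RPKM were among them. MRPL53 had 0 reads in all 6 libraries, and all of its coding sequence lies within exons of another gene, CCDC142. A count of 0 allows up to 0.146 to 0.173 CPM per library (3 fragments or 6 reads), a limit for counting error that does not cover reads left out. MRPS24, with 92.2% of its coding bases shared with a readthrough gene, had 0.159 ± 0.0657 RPKM with CXCL10 and 0.146 ± 0.0789 RPKM in controls. MRPL46 (72.8% shared), MRPL38 (94.1%), MRPS28 (62.03%), MRPS17 (100%), MRPL30 (100%) and MRPL12 (95.96%) completed the 8, whose levels do not include those reads. Of these, MRPL12 and MRPL30 were not among the lowest, at 15.99 and 7.65 RPKM over the 6 libraries. MRPL19 and MRPS9, the other genes with the lowest levels by subunit, shared 5.25% and 14.3%. Among the 59 members with at most 10% of coding bases shared, RPKM levels ran from 3.48 to 117, and 53 had a log2 fold change below 0, with a median of -0.24.

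**Figure D4:**
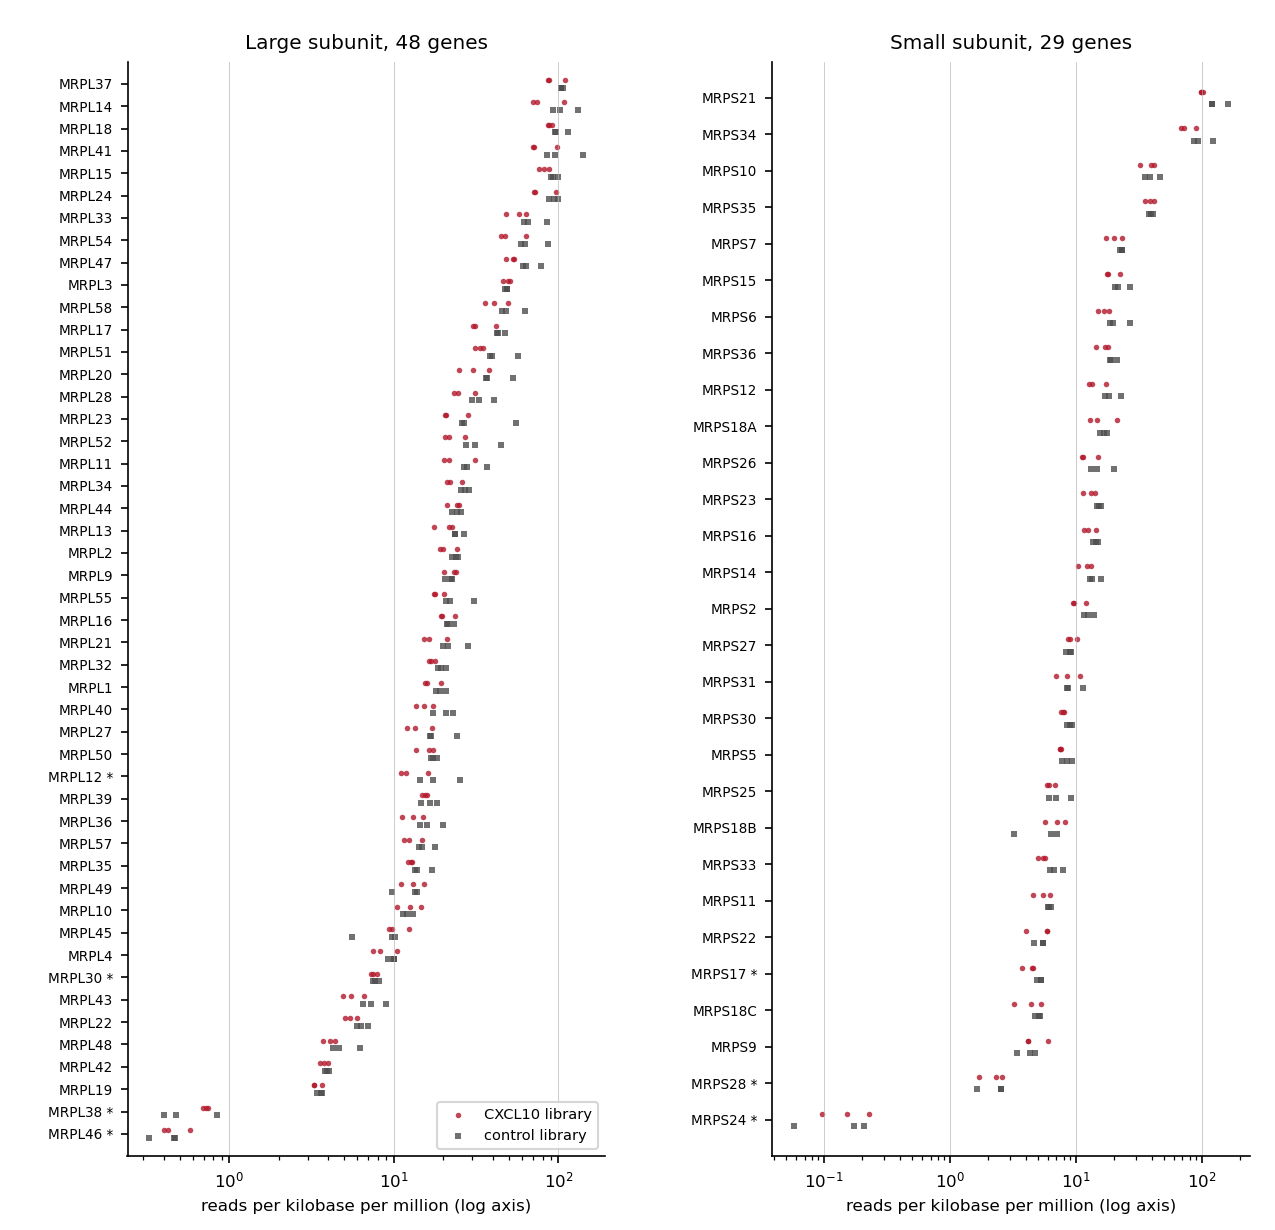
Level per exon length in each library (log axis) for the tested genes, large subunit left and small subunit right, with CXCL10 libraries as circles above the controls as squares, ordered by the mean over 6 libraries. An asterisk marks the 7 tested genes with more than 50% of their coding sequence in exons of another gene; MRPS24, MRPL46 and MRPL38 lie below 1 RPKM.

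Exon length moved with the comparison over all genes. Genes with up to 1000 bases of exon had a median log2 fold change of -0.20 and genes over 8000 bases 0.12, and the members are short, with a median exon length of 2502 bases against 4441 bases for all genes tested. In the class over 2000 and up to 4000 bases, the 30 members had a median log2 fold change of -0.23 and all 4362 genes -0.038. Over 4000 and up to 8000 bases the 15 members had -0.21 and all 6060 genes 0.058, while over 1000 and up to 2000 bases the 26 members and all 1696 genes were closer, at -0.24 and -0.18. With the length trend of each library removed, the medians were -0.19 for the large and -0.18 for the small subunit, with 59 of 77 members below 0. All genes then had a median of -0.0023, with 50.5% below 0. With that trend removed and control replicate 4 left out the subunit medians were -0.11 and -0.12.

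**Figure D5:**
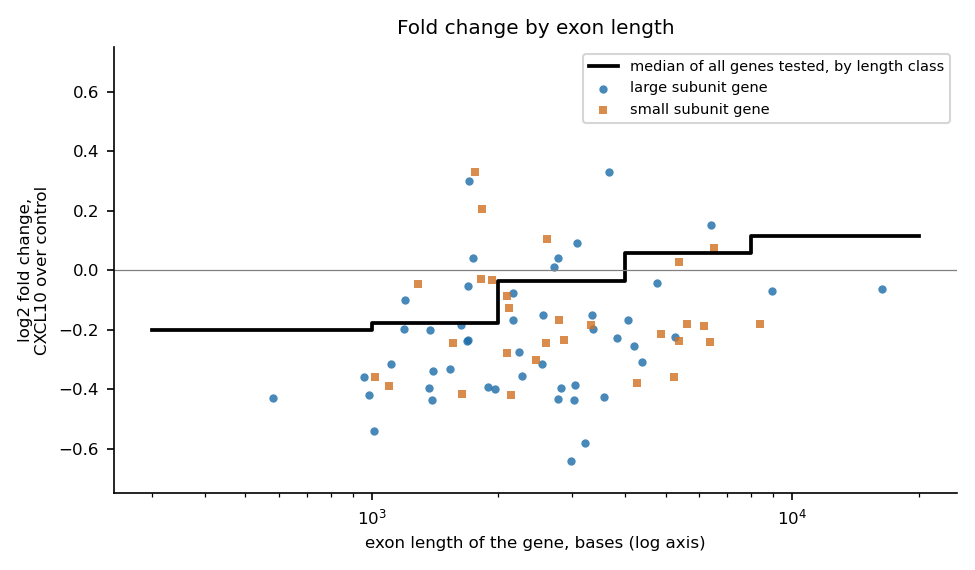
Log2 fold change, CXCL10 over control, against exon length (log axis) for the 77 members, with the median of all genes tested in each of 5 length classes as a black step line. Most members lie below the line, which climbs from -0.20 in the shortest class to 0.12 in the longest.

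The other lists of the mitochondrial translation system had medians nearer 0, and no gene on them passed edgeR's test over all genes. The translation factors of mitochondria had a median of -0.014 over 13 genes, with 7 below 0, and -0.044 without control replicate 4. The initiation factor gene MTIF3 had -0.31 ± 0.16 and MTRF1L, a release factor gene, -0.22 ± 0.20, which were -0.25 and -0.048 without that library. Mitochondrial aminoacyl-tRNA synthetases, which load the tRNAs, had a median of 0.00129 over 17 genes, with FARS2 at -0.25 ± 0.18 and VARS2 at 0.36 ± 0.27. Leaving out control replicate 4 gave a median of -0.015, FARS2 -0.15 and VARS2 0.074. Genes for assembly of the ribosome and modification of its rRNA had a median of -0.032 over 23 genes, of which 3 had an unadjusted p under 0.05 on the lower side (13.04%, against 4.65% of all genes). YBEY had -0.53 ± 0.20 and MALSU1, which keeps the large subunit from joining too early, -0.41 ± 0.16. With that library left out, the median was -0.0091, YBEY -0.24 and MALSU1 -0.26. Genes for mitochondrial transcription and RNA handling had -0.027 over 14 genes, of which 2 had an unadjusted p under 0.05 on the lower side (14.3%). These were SLIRP, which stabilises mitochondrial mRNAs, at -0.77 ± 0.21 (45.8 ± 10.1 CPM with CXCL10 and 78.4 ± 25.8 CPM in controls), and HSD17B10, a subunit of mitochondrial RNase P, at -0.45 ± 0.15. This median was -0.10 without control replicate 4, with 10 of 14 below 0, and SLIRP was then at -0.47 and HSD17B10 at -0.34. Nuclear regulators of mitochondrial genes had -0.011 over 10 genes, which was 0.082 without control replicate 4.

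The RNAs that these ribosomes translate and contain come from the mitochondrial genome. Its 13 mRNAs had a median log2 fold change of -0.023, which was -0.00303 without control replicate 4 and 0.14 with the length trend removed. The shortest of them, MT-ND4L and MT-ATP8, which overlap their neighbours MT-ND4 and MT-ATP6 so that their own counts are incomplete, had 0.56 ± 0.23 and 0.59 ± 0.26, which were 0.30 and 0.28 without control replicate 4. The rRNAs of the ribosome itself, MT-RNR1 of the small and MT-RNR2 of the large subunit, measured 1417 ± 385 and 5511 ± 1325 CPM with CXCL10 and 1740.2 ± 76.1 and 6509.6 ± 513 CPM in controls, with log2 fold changes of -0.30 ± 0.18 and -0.24 ± 0.17. CXCL10 replicate 3 was the lowest library for both, and because polyadenylated RNA was selected, these rRNA counts do not measure the amount of ribosomes.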

How the data were processed

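Polyadenylated RNA was sequenced from 6 libraries made with a stranded Illumina mRNA ligation kit, per the labels. The deposited counts are raw reads per gene name for 1 library each. Per the file headers, the authors ran featureCounts 2.0.6 over the exons of GENCODE 30. Trim Galore, STAR and Subread with hg38 are named in the submitters' processing notes, with versions not given in the sources used here. Per the file headers both mates were counted and no strand was set, so sense and antisense reads cannot be told apart, and reads over 2 genes were left out. Floors cover counting error only, while the SD and SE values given with ± include the spread between libraries.

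The main test was the quasi-likelihood test of edgeR 4.0.16 (R 4.3.3) on all 6 libraries, with treatment alone in the model, filterByExpr, TMM factors and Benjamini-Hochberg adjustment over 16531 genes at a threshold of 0.05. It was checked on simulated counts. Standard errors come from the fold change and its F statistic. CPM and RPKM use the TMM-scaled totals of the filtered genes. DESeq2 1.42.0, limma 3.58.1 (voom) and the settings in the closing section were alternatives. Overlaps use the exon coordinates in the files, and coding sequences are GENCODE 29 principal isoforms on the same build. 75 MRP pseudogene names fell outside the pattern, and their summed reads were at most 0.114% of the reads of the members. All 15 pairs of libraries differed by more than sampling noise.

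Named members are, per subunit, the 4 with the smallest p in each direction, the 3 highest and 3 lowest in RPKM, untested members, 12 fixed genes, and up to 2 genes of each other list. Members and lists were chosen with earlier results of these data known. Of the listed symbols, 1 was not used here. Replicate numbers were the same in both groups, but deviations of same-numbered libraries correlated by only 0.026, 0.019 and -0.051 for replicates 1, 3 and 4.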

Additional observations from a re-analysis of the deposited data

How the results depend on the processing

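The medians of both subunits stayed below 0 under all 21 alternative settings run. The large subunit median ranged from -0.33 to -0.096 over the fits that left out libraries, and the small subunit median from -0.29 to -0.10. The ends were the fit without CXCL10 replicate 1 and the fit without both control replicate 4 and CXCL10 replicate 3, which was chosen after seeing the data. Scaled by library size alone the small subunit median was -0.11, and the median of all genes 0.10. With the replicate number as a block (replicate block), the medians were -0.25 and -0.20 and 0 genes were called; the block changed no call. Over all genes, leaving out any 1 library gave 0 calls. No filter on low counts gave 137 calls among 30869 genes, 45 higher and 92 lower. Voom with library quality weights (chosen after seeing the data) gave 42 calls, and the fit without both libraries 6. Of the members, MRPL52 and MRPL23 were called, and only with no filter, which also called the related genes GADD45GIP1, SLIRP, MT-ND4L and MT-ATP8; SLIRP was called with quality weights too. The cause of these differences was not tested.

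Some named genes changed sign, most with reported values near 0 but also MRPS9, VARS2 and MT-RNR2, which had 0.21, 0.36 and -0.24 with all 6 libraries. Scaled by library size alone, MRPL19 had 0.012, MRPS28 had 0.037 and MRPS18A had 0.026. With the length trend removed, MRPS10 had 0.026, MRPS28 had 0.078, MRPS22 had -0.029 and MRPS18A had 0.094. With the replicate block and the length trend removed, MRPS27 had -5.32e-05, MRPS10 had 0.017, MRPS28 had 0.092, MRPS22 had -0.046 and MRPS18A had 0.084. Without control replicate 4 and with the length trend removed, MRPL46 had -0.037, MRPL49 had -0.018, MRPS27 had -0.00349, MRPS24 had -0.21, MRPS10 had 0.12, MRPS22 had -0.080 and VARS2 had -0.00087. With quality weights, MRPL46 had -0.060, MRPL49 had -0.038, MRPS9 had -0.027, MRPS24 had -0.61 and MRPS10 had 0.062. Over the fits that left out libraries, the lowest and highest values were MRPL46 -0.029 to 0.26, MRPL49 -0.049 to 0.21, MRPS9 -0.12 to 0.31, MRPS24 -0.26 to 0.44, MRPS10 -0.18 to 0.039, MRPS28 -0.21 to 0.14, MRPL3 -0.014 to 0.052, MRPS22 -0.14 to 0.19, MRPS18A -0.28 to 0.10 and MT-RNR2 -0.38 to 0.00297. The median standard error of a member was 0.15 on the log2 scale with 3 libraries per group.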
